A study of Mus musculus with 18 samples.

Results

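The respiratory chain genes described here are the nuclear genes whose symbols start with Nduf, Uqcr or Atp5, or that start with Cox followed by a number from 4 to 8 and the letter a, b or c. This rule took 88 of the 32747 gene names found over all tables. Of these, 36 encode subunits of complex I, 8 encode complex III, 18 encode complex IV (Ndufa4 and Ndufa4l2 included), 16 encode the ATP synthase and 8 are complex I assembly factors named Ndufaf. The other 2 names, Atp5s and Atp5sl, encode proteins that are not standard subunits of the ATP synthase. Counts were found in every table for 81 names, and 7 were set apart: Atp5o, Atp5o-1, Ndufaf8, Atp5sl, Cox8c, Cox7b2 and Cox6a2. Symbols were matched to RefSeq for 87 of the 88 names, 3 of them through an older symbol, and the matched genes lie on 19 chromosomes.

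The respiratory chain sits in the inner mitochondrial membrane. Complex I, built from Nduf proteins, takes electrons from NADH, complex III (Uqcr proteins) passes them to cytochrome c, and complex IV (Cox proteins) hands them to oxygen. The ATP synthase (Atp5 proteins) uses the proton gradient that these complexes build up. A few subunits are encoded in mitochondrial DNA, and all those described here are encoded in the nucleus, made in the cytoplasm and imported. Some subunits of complex IV come in isoforms that differ between tissues: Cox6a2, Cox7a1 and Cox8b are known from heart, skeletal muscle and brown fat, Cox6b2 from testis, and Cox6a1, Cox7a2 and Cox8a are the widely expressed partners. Ndufa4l2, a homologue of the complex IV subunit Ndufa4, is induced in low oxygen and is known from pericytes, the contractile cells around small vessels. In the bladder, the smooth muscle of the detrusor (the muscular wall) contracts to void urine, and the urothelium is the epithelium that lines the lumen.

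All samples were from C57BL/6 mice. Single-cell libraries of whole bladder came from pools of 3 males at 22 months, 3 males at 3 months, and 2 females with 2 males at 12 months (2 libraries) and at 24 months (1 library). A library of nuclei came from 12 months (2 females with 2 males), a library of the detrusor layer alone from 14 months (3 females), and a detrusor-enriched one from 14 months (2 females with 2 males). Spatial sections, with RNA captured on a grid of spots, were 2 at 22 and 2 at 14 months from males (labelled 4X Male). Bulk RNA was read from 3 samples of intact and 3 of dissociated bladder at 12 months (each labelled 3X Female). Nothing in the labels says that the bulk samples or sections came from different animals, so p-values measure the spread between these samples, which may be technical.

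Droplet libraries held 5197910 (nuclei) to 55374101 counts, sections 21976101 to 32021223 and bulk libraries 23083752 to 68760791, and 949 to 8420 cells were kept per droplet library. Members took 2.11% to 2.61% of all counts in whole-bladder cells, 1.14% in nuclei, 2.68% to 3.01% in sections and 0.496% to 0.788% in bulk. Classes of cells are called urothelial-like, fibroblast-like or smooth-muscle-like from fixed markers in clusters made without the member genes. Levels are in CPM, counts scaled to the summed counts of the 26344 gene names common to the droplet and spot tables, with mitochondrially encoded genes left out, and of all genes in bulk. The 2 libraries of males stood apart: 4 members that are well counted elsewhere were nearly absent there. In urothelial-like cells, Atp5l was at 0 and 1.12 CPM in the 22-month and 3-month libraries of males and at 1044 to 1123 CPM in the 3 libraries of mixed sex. Atp5g2 was at 1.28 and 1.79 against 639 to 665 CPM, Cox7c at 17.7 and 15.9 against 722 to 843 CPM, and Ndufs5 at 14.3 and 50.4 against 269 to 289 CPM. Other members differed too, in both directions. The ratio of mixed-sex to male means was 0.338 (urothelial-like) and 0.358 (fibroblast-like) for Uqcrc1 and 0.462 and 0.537 for Atp5b. It was 2.27 and 2.71 for Uqcrb, and 1.06 and 1.05 for Cox8a. The 2 libraries of males also listed fewer gene names (27775 against 27998). They gave 6.42% and 7.42% of their counts to ribosomal protein genes, against 28.5% to 29.2%. Sex and gene list differ together between these libraries and cannot be told apart. At most 64 barcodes were shared between any 2 of the droplet libraries, or 1.0% of the smaller library.

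The ATP synthase subunit that joins the catalytic head to the membrane part, Atp5o, changed its name between tables. Counts stood under Atp5o in the 5 whole-bladder cell libraries and under Atp5o-1 in the nuclei, detrusor and section tables, where Atp5o was listed at 0, and the bulk table held the same counts under both. Read under the name in use, the gene was at 505, 416, 315, 273 and 296 CPM in urothelial-like cells of the 22-month, 3-month, both 12-month and 24-month libraries. In fibroblast-like cells of the same libraries Atp5o was at 343, 306, 265, 223 and 267 CPM, the lower of the 2 classes in each (log2 -0.66 ± 0.07 SE, adjusted p = 4.75e-05). Its level under Atp5o-1 was 117 CPM in urothelial-like and 101 CPM in fibroblast-like nuclei. The fits of nuclei against cells held the name Atp5o, at 0 in nuclei because of the change of name, and their result for this gene is not read. Cox6a2 had 0 counts in the smooth-muscle-like cells of the 24-month, detrusor-only and detrusor-enriched libraries, which allows up to 26.1, 0.670 and 2.19 CPM, and 0 counts in the nuclei, which allows up to 0.616 CPM over all of them. Where it was counted in urothelial-like or fibroblast-like cells, or in muscle-marker or urothelial-marker regions of the sections, Cox6a2 was at 0.468 CPM or less, from 4 counts or fewer.

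Many genes of the respiratory chain are known targets of the transcription factor NRF1 and of ETS-family factors. The 250 bases before the annotated start, taken from RefSeq on GRCm38.p6 (the assembly that mm10 names), were found for 74 members (80 windows). The letters GCGCA and GCGC with any base between them, known from NRF1 sites, stood on either strand in 13 member windows (16.2%) against 3.74% of all 32851 windows, and CGGAAG, the core of ETS sites, in 27 (33.8%) against 13.6%, with both in 5. Member windows held a median of 15 CpG pairs and 56.4% G or C, and all windows 6 and 52.4%, and the part of base composition in the match counts was not tested. The windows of 3 tissue-restricted isoforms and of 2 other members are shown because they differ in these letters. They were chosen after the values had been seen. Capitals mark matches to either motif, on either strand, each window reading toward its gene.
Cox7a1, chr7:30183921-30184170, plus strand: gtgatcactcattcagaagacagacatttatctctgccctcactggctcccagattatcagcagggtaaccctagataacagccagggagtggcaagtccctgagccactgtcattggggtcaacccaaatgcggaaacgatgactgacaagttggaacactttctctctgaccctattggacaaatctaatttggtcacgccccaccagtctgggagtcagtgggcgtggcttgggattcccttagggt
Cox8b, chr7:140900447-140900696, minus strand: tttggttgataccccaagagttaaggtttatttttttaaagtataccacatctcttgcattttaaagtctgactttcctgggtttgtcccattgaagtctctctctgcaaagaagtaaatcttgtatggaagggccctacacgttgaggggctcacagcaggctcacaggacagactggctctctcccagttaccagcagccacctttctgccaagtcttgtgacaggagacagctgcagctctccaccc
Cox6b2, chr7:4753095-4753344, minus strand: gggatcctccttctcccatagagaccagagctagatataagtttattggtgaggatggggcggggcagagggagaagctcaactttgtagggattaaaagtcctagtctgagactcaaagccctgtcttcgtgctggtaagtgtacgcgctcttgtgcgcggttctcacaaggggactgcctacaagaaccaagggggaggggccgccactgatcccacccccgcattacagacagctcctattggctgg
Cox6a1, chr5:115348959-115349208, minus strand: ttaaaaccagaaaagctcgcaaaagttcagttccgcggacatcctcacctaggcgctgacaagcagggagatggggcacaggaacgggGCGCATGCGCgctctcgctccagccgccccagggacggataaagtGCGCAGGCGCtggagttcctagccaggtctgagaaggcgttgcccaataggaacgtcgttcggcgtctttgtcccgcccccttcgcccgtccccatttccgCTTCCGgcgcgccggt
Ndufa11, chr17:56717512-56717761, plus strand: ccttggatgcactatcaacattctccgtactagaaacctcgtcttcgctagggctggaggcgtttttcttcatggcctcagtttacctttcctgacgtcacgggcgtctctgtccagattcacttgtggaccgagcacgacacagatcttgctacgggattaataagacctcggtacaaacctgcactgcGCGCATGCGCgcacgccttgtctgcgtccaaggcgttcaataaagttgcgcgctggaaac
The Cox7a1, Cox8b and Cox6b2 windows held neither motif, the Cox6a1 window 2 NRF1 matches and 1 ETS match, and the Ndufa11 window 1 NRF1 match. A match is a run of letters in this window and is not a measured binding site.

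Urothelial-like cells carried more respiratory chain RNA, as a share of counts, than fibroblast-like cells in each of the 5 whole-bladder libraries. The summed level in urothelial-like cells was 33950, 28124, 29059, 28443 and 28602 CPM in the 22-month, 3-month, first and second 12-month and 24-month libraries (29636 ± 2435 SD, n = 5). Fibroblast-like cells of the same libraries were at 21478, 18525, 20550, 17878 and 20579 CPM (19802 ± 1525 SD, n = 5). The 2 classes did not overlap, and the fibroblast-like level was 0.629 to 0.719 of the urothelial-like level within a library. Complex III showed the widest gap, at 0.456 to 0.585 of the urothelial-like level, and the assembly factors went the other way, at 1.05 to 1.25. Median counts per cell were higher in urothelial-like cells (3163 to 18294) than in fibroblast-like cells (1625 to 6141), and the part of depth in these shares was not tested.

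**Figure D1:**
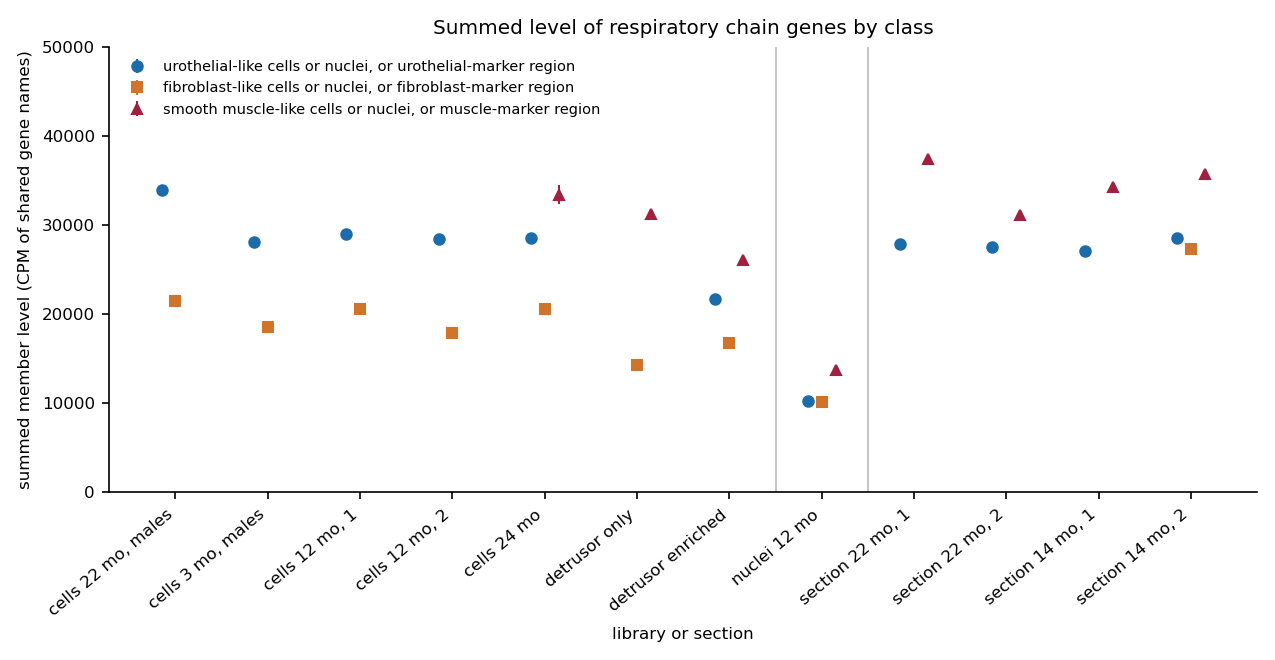
Summed level of the respiratory chain genes (vertical axis, CPM of shared gene names) in each library or section (horizontal axis) for urothelial (circles), fibroblast (squares) and smooth muscle (triangles) classes of cells or nuclei, or regions of sections, with 95% Poisson intervals that cover counting error only and are mostly smaller than the symbols. Urothelial-like cells of the 5 whole-bladder libraries sit between 28124 and 33950 CPM, their fibroblast-like cells between 17878 and 21478 CPM, and the 3 classes of nuclei between 10147 and 13733 CPM.

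Gene by gene, edgeR's quasi-likelihood test with library as a block called 69 of 81 members lower and 3 higher in fibroblast-like than in urothelial-like cells. Over all 13038 genes tested, 34.6% were called lower and 32.9% higher. The median log2 difference was -0.83 over the members and -0.05 over all genes. All 8 complex III members and all 14 ATP synthase members tested were lower, as were 34 of 36 in complex I and 11 of 15 in complex IV. Of the 7 assembly factors tested, 1 was lower and none was higher. Among the 9 members not called was Ndufs1, a core subunit of complex I.

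The deepest fall was in Uqcr10, a small subunit of complex III. Uqcr10 was at 1552, 1137, 959, 998 and 995 CPM in urothelial-like cells and at 476, 364, 363, 258 and 322 CPM in fibroblast-like cells of the same libraries (log2 -1.99 ± 0.09 SE, adjusted p = 9.52e-07). Its lowest urothelial-like value lay above its highest fibroblast-like value. Uqcr11, its neighbour in complex III, differed by -1.45 ± 0.08, and Atp5e, the epsilon subunit of the ATP synthase, by -1.31 ± 0.07, on the log2 scale. Cox8a, the general form of subunit 8 of complex IV, was at 1497, 1126, 1374, 1438 and 1351 CPM against 781, 660, 764, 694 and 822 CPM (log2 -1.19 ± 0.08, adjusted p = 5.11e-06). Its classes did not overlap either. Atp5g1, Atp5g2 and Atp5g3, which encode the same mature c subunit of the ATP synthase, were all lower in fibroblast-like cells, by log2 differences of -0.66 ± 0.08, -1.53 ± 0.16 and -1.49 ± 0.10, with Atp5g2 resting on the 3 libraries of mixed sex.

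Outside the name rule, 3 of 4 subunits or carriers of the chain were lower in fibroblast-like cells and none higher, among them Cox4i1, the general isoform of subunit 4 of complex IV (log2 -1.52 ± 0.07). Lower too were 3 of 4 complex II subunits, 11 of 16 genes of pyruvate dehydrogenase and the citric acid cycle (1 higher) and 10 of 15 glycolysis genes (2 higher). Of 9 regulators of mitochondrial genes, 3 were lower and 2 higher. Ppargc1a, a coactivator known to raise mitochondrial genes, was at 8.33, 10.1, 31.6, 33.3 and 25.9 CPM in urothelial-like cells and at 0.206 to 1.53 CPM in fibroblast-like cells (log2 -5.08 ± 0.26, adjusted p = 1.35e-06).

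The 3 members that rose in fibroblast-like cells were all complex IV isoforms: Cox6b2, Ndufa4l2 and Cox8b. Cox6b2 was at 96, 63.8, 92.3, 111 and 94.5 CPM in fibroblast-like cells and at 14.3, 4.7, 4.45, 3.54 and 4.85 CPM in urothelial-like cells (log2 3.69 ± 0.29, adjusted p = 3.5e-05). Ndufa4l2 was at 173, 83.3, 80.4, 58.8 and 52.3 CPM against 9.19, 2.02, 1.01, 2.34 and 1.03 CPM (log2 4.88 ± 0.30, adjusted p = 6.77e-06). Neither gene's classes overlapped. The third, Cox8b, was low in both classes, at 14.1, 2.85, 2.13, 2.22 and 2.3 CPM in fibroblast-like cells, the last 3 values resting on 5, 2 and 9 counts. In urothelial-like cells Cox8b had 3 counts at 22 months and 1 count at 24 months, and 0 counts in the 3-month and both 12-month libraries, which allow up to 0.672, 0.0975 and 0.212 CPM (the level of 3 counts). Cox7a1 was at 1.11 to 3.98 CPM in fibroblast-like and 1.57 to 3.42 CPM in urothelial-like cells and was not called (log2 -0.05 ± 0.32, adjusted p = 0.98).

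Fibroblast-like cells of the 2 detrusor libraries had lower summed levels, 14346 CPM in detrusor only and 16812 CPM in detrusor enriched, than those of the whole-bladder libraries. Cox6b2 was again high in these cells, at 101 and 66.2 CPM. The order of the summed levels depended on the scale. With ribosomal protein genes and Malat1 left out of the denominator, detrusor only was at 18209 CPM and detrusor enriched at 21060 CPM. Fibroblast-like cells of the whole-bladder libraries were then at 19430 to 26553 CPM. Age, tissue taken and gene list differ together between these libraries and cannot be told apart. The detrusor-only pool also differed in sex (3 females). The detrusor-enriched pool had the same mix of sexes as the 12-month and 24-month whole-bladder pools, whose fibroblast-like cells were at 17878 to 20579 CPM. The 400 urothelial-like cells of the detrusor-enriched library were at 21653 CPM with a median of 23840 counts per cell, and a cluster of 1109 cells with a median of 583 counts stayed unnamed there.

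The scale moved these counts. With library size alone as the scale, the median of all genes moved from -0.05 to 0.26 on the log2 scale, 63.8% of all calls were higher in place of 48.8%, and the members stood at 5 higher and 59 lower. The 3 libraries of mixed sex alone gave 3 higher and 69 lower, with 66.3% of all 13260 genes called. The 2 libraries of males alone gave 4 higher and 58 lower of 79 tested, with 59.6% of all 12282 genes called.

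**Figure D2:**
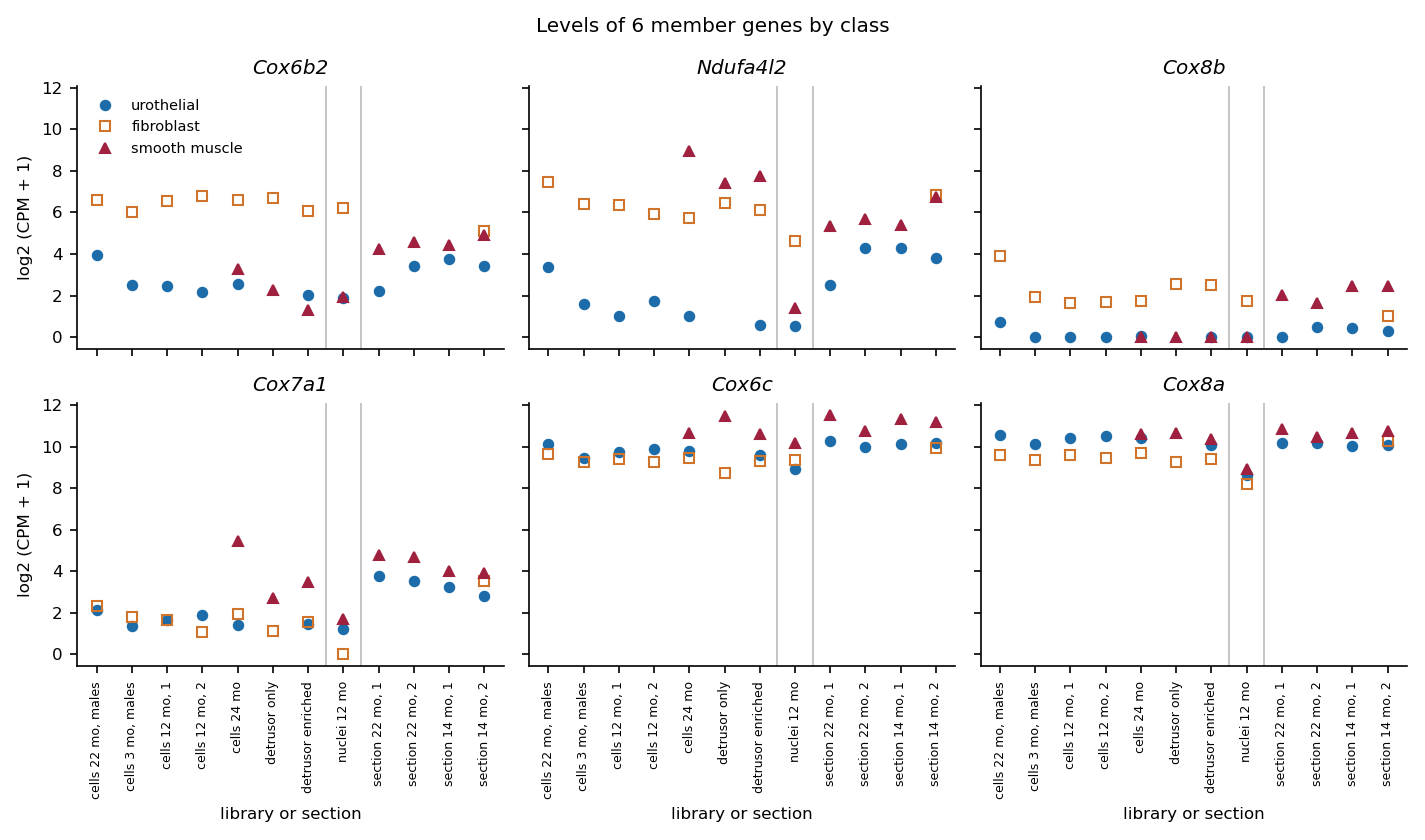
Levels of 6 members on a log2(CPM + 1) axis in each library or section (horizontal axis) by class, one point per class and library, without error bars. Cox6b2 is highest in fibroblast-like cells and nuclei, Ndufa4l2 in smooth-muscle-like cells of the cell libraries, and Cox6c in smooth-muscle-like cells and muscle-marker regions. In the detrusor libraries the smooth-muscle-like class joins clusters rich in the muscle gene Actg2 and clusters rich in the pericyte marker Rgs5. Cox8a is drawn as a widely expressed partner.

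Smooth-muscle-like cells were few, with 20 cells at 24 months, 428 in detrusor only and 167 in detrusor enriched. Their summed member levels were 33434 CPM (95% Poisson interval 32385 to 34509), 31283 CPM (31119 to 31447) and 26135 CPM (25865 to 26407). Fibroblast-like cells of the same libraries were at 20579, 14346 and 16812 CPM, so that the muscle level was 1.62, 2.18 and 1.55 times as high. These intervals cover counting error only. In the detrusor libraries the class joined clusters rich in the muscle gene Actg2 and clusters rich in the pericyte marker Rgs5. The 20 cells at 24 months had Actg2 at 1821 CPM and Rgs5 at 1002 CPM. Complex IV showed ratios of 1.79, 2.74 and 1.68, and the ATP synthase 1.57, 1.84 and 1.48.

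Over these 3 libraries, 45 of 81 members were called higher and 2 lower in smooth-muscle-like than in fibroblast-like cells, against 12.3% and 14.4% of all 12000 genes tested. The median log2 difference was 0.65 over the members and -0.04 over all genes. Complex III had 8 of 8 members higher, complex IV 11 of 15 (2 lower), complex I 20 of 36, the ATP synthase 6 of 14 and the assembly factors none of 7. Among related lists, 13 of 13 mitochondrially encoded subunits, 4 of 4 nuclear subunits or carriers outside the name rule, 2 of 4 complex II subunits, 9 of 16 citric acid cycle genes and 11 of 15 glycolysis genes were higher, and none of these lists had a lower call.

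These calls depended on how the class was drawn. At clustering resolution 2, 0 members were called in either direction, with a median log2 difference of 0.44 over the members and 5.48% of all genes called. The detrusor-only class then held 317 cells in place of 428. A 3-month cluster of 161 cells, with smooth muscle markers at 4721 CPM and fibroblast markers at 33924 CPM met the marker rule at that resolution and joined the class. With doublets kept, 8 members were higher and 1 lower, with a median log2 difference of 0.64 and 11.8% of all genes called, and the 24-month class held 59 cells with smooth muscle markers at 8087 CPM in place of 20 cells at 41085 CPM. From the 2 detrusor libraries only, 28 members were higher and 2 lower, with 19.6% of all genes called. Without the 24-month library 27 were higher and 2 lower (19.0% of all genes), without the detrusor-only library 29 and 1 (25.0%), and without the detrusor-enriched library 15 and 1 (15.5%). The median over the members was 0.56 to 0.64 in these 4 fits. The first 2 of these fits hold the same libraries and differ in the genes tested (13679 and 13198), so they are not separate checks.

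Atp5b, the catalytic beta subunit of the ATP synthase, was at 1106, 808 and 841 CPM in smooth-muscle-like cells of the 24-month, detrusor-only and detrusor-enriched libraries and at 455, 276 and 325 CPM in their fibroblast-like cells (log2 1.34 ± 0.19, adjusted p = 0.000316). Cox6c, a small subunit of complex IV, was at 1594, 2866 and 1552 against 691, 426 and 634 CPM (log2 1.69 ± 0.31, adjusted p = 0.00481). Ndufb8, an accessory subunit of complex I, was at 462, 379 and 294 against 162, 117 and 129 CPM (log2 1.40 ± 0.21, adjusted p = 0.000353). None of these 3 genes overlapped between the classes. The calls of Atp5b and Cox6c were lost at resolution 2 and with doublets kept, and that of Ndufb8 at resolution 2.

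The heart and muscle isoforms behaved apart from each other in smooth-muscle-like cells. Cox7a1 was at 43.6, 5.58 and 10.2 CPM, from 5, 25 and 14 counts, against 2.81, 1.15 and 1.95 CPM in fibroblast-like cells (log2 2.61 ± 0.50, adjusted p = 0.00205). In the pericyte-like clusters of detrusor only and detrusor enriched Cox7a1 was at 28.0 CPM (25 counts, 95% Poisson interval 18.1 to 41.3) and 17.8 CPM (10 counts, 8.53 to 32.7). These levels lay above the smooth-muscle-like ones, whose intervals were 3.61 to 8.24 and 5.58 to 17.1 CPM, the latter overlapping. The call in smooth-muscle-like cells was lost at resolution 2 and with cells held to at most 10% mitochondrial counts. Cox8b had 0 counts in smooth-muscle-like cells of all 3 libraries, which allows up to 26.1, 0.670 and 2.19 CPM, against 2.3, 4.78 and 4.62 CPM in their fibroblast-like cells. Cox6b2 was at 8.71 (1 count), 3.8 and 1.46 CPM, against 94.5, 101 and 66.2 CPM (log2 -4.88 ± 0.37, adjusted p = 2.12e-06). Cox6b2 and Cox8b were the 2 members called lower.

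Ndufa4l2 and Cox6c did not move together within the smooth-muscle-like class. In the detrusor-only library the class joined a cluster of 218 cells with Actg2, the smooth muscle gamma actin, at 8777 CPM and Rgs5, a pericyte marker, at 6.65 CPM, and a cluster of 210 cells with Actg2 at 350 and Rgs5 at 939 CPM. Ndufa4l2 was at 3.15 CPM in the first and 471 CPM in the second, whereas Cox6c was at 3866 and 1099 CPM and Ndufa4 at 1305 and 308 CPM. The summed member level was 35617 CPM in the Actg2-rich cluster and 23629 CPM in the Rgs5-rich one.

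The detrusor-enriched library showed the same order for these single genes, and its summed levels lay within each other's counting interval. Its cluster of 56 cells with Actg2 at 7128 CPM had Ndufa4l2 at 7.67 and Cox6c at 2446 CPM, and its cluster of 111 cells with Rgs5 at 1241 CPM had Ndufa4l2 at 267 and Cox6c at 1342 CPM. The summed levels there were 26312 CPM (95% Poisson interval 25693 to 26942) and 26094 CPM (25794 to 26396), and median counts per cell were 1469.5 and 11097. Clusters named pericyte-like had Ndufa4l2 at 949 CPM in detrusor only and 733 CPM in detrusor enriched, with summed member levels of 17912 and 17299 CPM. The 22 pericyte-like cells of the 3-month library had Ndufa4l2 at 2197 CPM and a summed level of 26131 CPM (95% Poisson interval 24184 to 28193). Cox4i2, the isoform of subunit 4 known for its role in oxygen sensing, followed Ndufa4l2 in detrusor only. It was at 9.45 and 247 CPM in the 2 smooth-muscle-like clusters of that library and at 475 CPM in its pericyte-like cells. These clusters were formed without the member genes, but each is one group of cells in one library and no test was made between them.

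Over the class as a whole, Ndufa4l2 was at 488, 172 and 217 CPM against 52.3, 86.6 and 67.5 CPM in fibroblast-like cells (log2 1.84 ± 0.43, adjusted p = 0.0269). This call was lost with RLE or library-size scaling, without the filter on low counts, at resolution 2 and without the 24-month library. The 24-month cells, highest for Ndufa4l2, had Rgs5 at 1002 CPM. In the Actg2-rich clusters of detrusor only and detrusor enriched, Ndufa4l2 was at 3.15 and 7.67 CPM, below the fibroblast-like cells. A cluster of 122 cells in the 22-month library, left unnamed, had the pericyte markers Rgs5 and Higd1b and the muscle gene Des among its 10 leading genes. It had Ndufa4l2 at 1311 CPM, Rgs5 at 1780 CPM and a summed member level of 32304 CPM. It entered no comparison.

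The 2 comparisons of classes share the fibroblast-like cells of the 24-month library, so their values are not fully independent. For Cox8a the log2 differences were -1.19 (fibroblast-like against urothelial-like) and 1.04 (smooth-muscle-like against fibroblast-like), and for Cox6c the smooth-muscle-like values given above stood beside 1104, 708, 865, 931 and 876 CPM in urothelial-like cells of the whole-bladder libraries.

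Nuclei held less respiratory chain RNA, as a share of counts, than cells of the same class. The summed level was 10238 CPM in 1239 urothelial-like nuclei, 10147 CPM in 404 fibroblast-like nuclei and 13733 CPM in 1383 smooth-muscle-like nuclei. The mean of the cell libraries was 2.89 times the nuclear level in the urothelial-like class and 1.95 times in the fibroblast-like class. Sums of whole-bladder cells include Atp5o, whereas those of nuclei, detrusor libraries and sections do not, as their counts stood under Atp5o-1. From members with counts in every table only, the cell libraries were at 27708 to 33445 CPM (urothelial-like) and 17655 to 21135 CPM (fibroblast-like). The nuclear levels did not change. The order of urothelial-like above fibroblast-like cells was not seen in nuclei, whose 95% Poisson intervals, 10107 to 10370 and 9847 to 10454 CPM, overlapped.

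There was 1 library of nuclei, so the spread between nuclei libraries was not measured, and the test takes it to vary like the 5 cell libraries. The calls below rest on that assumption. In the urothelial-like class 68 of 80 members were called lower and 0 higher in nuclei by edgeR, against 19.1% lower and 16.1% higher among all 13331 genes. In the fibroblast-like class 60 of 81 were lower and 0 higher, against 15.6% and 8.33% of 12441 genes. The median log2 difference was -2.66 over the members and -0.03 over all genes in the first class, and -1.95 and -0.32 in the second. No member above 0 had an unadjusted p under 0.05 in either class. DESeq2 called 71 and 59 members lower in these classes and 0 higher, where 38.1% and 25.6% of the genes with an adjusted p were called. At library size alone edgeR called 52 lower and 1 higher, with 14 lower and 0 higher in the fibroblast-like class, where 41.6% and 25.4% of all genes were called. That scale moved the median of all genes to 1.12 and 0.56, and raised the share of calls that were higher from 45.7% to 89.7% and from 34.8% to 84.9%. Both comparisons set the same nuclei library against the same 5 cell libraries.

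Ndufa3, a small accessory subunit of complex I, had the lowest log2 difference of the called members in the urothelial-like class, -3.61 ± 0.63 (adjusted p = 0.00609). The log2 difference was -3.50 ± 0.31 for Ndufs8, an iron-sulphur subunit of complex I, -3.46 ± 0.34 for Cox6a1, and -3.30 ± 0.46 and -3.26 ± 0.39 for Uqcrq and Uqcr10 of complex III. Uqcr10 was at 262 CPM in urothelial-like nuclei against 959 to 1552 CPM in the cell libraries. In the fibroblast-like class it was -3.19 ± 0.49 for Ndufa3, -3.14 ± 0.49 for the assembly factor Ndufaf2 and -3.11 ± 0.60 for Ndufs8.

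Complex III had 7 of 8 members lower in urothelial-like nuclei (median log2 -3.08), complex I 34 of 36 (-2.63), complex IV 10 of 14 (-2.88), the ATP synthase 11 of 14 (-2.64) and the assembly factors 5 of 7 (-1.70). In fibroblast-like nuclei these counts were 7 of 8, 32 of 36, 10 of 15, 9 of 14 and 2 of 7. The low names of the libraries of males, Atp5l, Atp5g2, Cox7c and Ndufs5, were not called in either class. With the 3 libraries of mixed sex only, 77 members were lower in the urothelial-like class, and the share of all genes called was 56.7%.

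**Figure D3:**
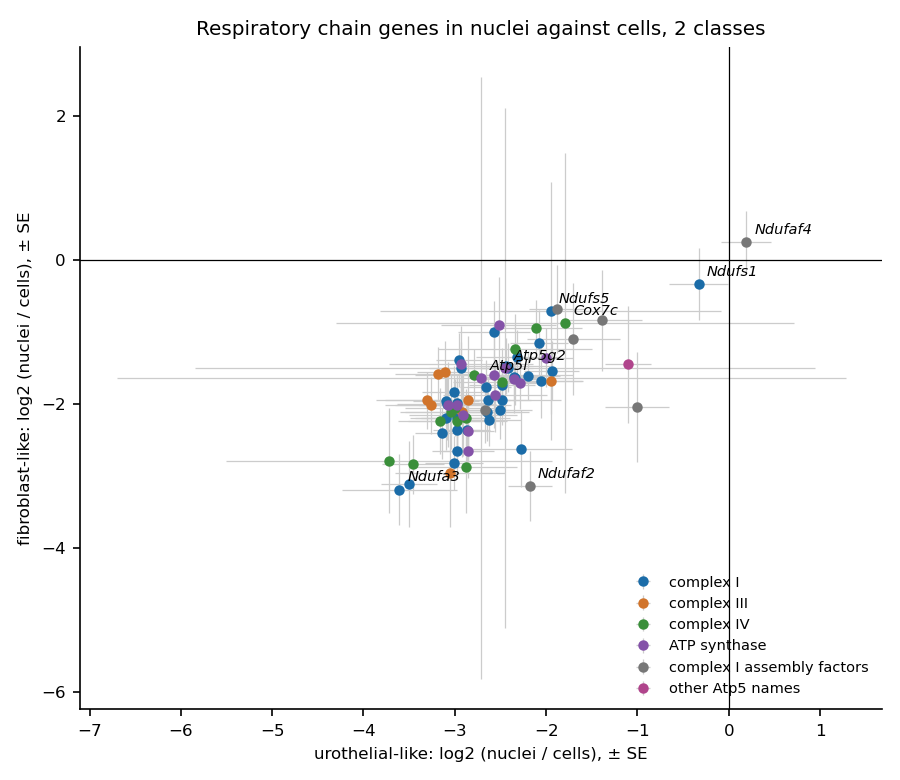
log2 ratio of nuclei to cells (± SE) for 78 members in the urothelial-like class (horizontal axis) and the fibroblast-like class (vertical axis), coloured by complex; Cox7a1, at 0 counts in fibroblast-like nuclei, is not drawn. Most members lie between -1.5 and -3.5 in the urothelial-like class, and Ndufaf4 and Ndufs1 lie nearest 0 in both classes.

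Ndufs1, the largest core subunit of complex I, and Ndufaf4, an assembly factor, stood apart. Ndufaf4 was at 50.4 CPM in urothelial-like nuclei against 19.4, 24.9, 18.3, 18.1 and 17.3 CPM in the cells, and at 68.1 CPM in fibroblast-like nuclei against 16.6 to 45.7 CPM. On the fitted scale the log2 differences of Ndufaf4 were 0.19 and 0.25, and neither was called, but at library size alone Ndufaf4 was called higher in the urothelial-like class (log2 1.37, adjusted p = 0.0112). Ndufs1 was at 61.3 CPM in urothelial-like nuclei against 24.2 to 56.2 CPM in cells, with fitted log2 differences of -0.33 and -0.34, not called in either class. Its mean in urothelial-like cells was 54.5 CPM in the libraries of males and 24.7 CPM in those of mixed sex. Both genes fall outside the rule for named genes and were singled out after their values had been seen. In CPM both genes were above the values in all 5 cell libraries in the urothelial-like class.

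Cox6b2 was at 72.8 CPM (31 counts) in fibroblast-like nuclei, against 2.63 CPM (6 counts) in urothelial-like nuclei. Ndufa4l2 was at 23.5 CPM (10 counts) in fibroblast-like nuclei, 0.438 CPM (1 count) in urothelial-like and 1.66 CPM in smooth-muscle-like nuclei, the last from 3 counts. In the fibroblast-like class Ndufa4l2 was called lower in nuclei than in cells (log2 -2.79 ± 0.73, adjusted p = 0.0301) and Cox6b2 was not called. Smooth muscle markers were summed to 5546 CPM in urothelial-like and 13501 CPM in fibroblast-like nuclei, against 51863 CPM in smooth-muscle-like nuclei, and their part in the nuclear levels was not tested. One of the 3 smooth-muscle-like clusters of nuclei, 473 nuclei with a median of 757 counts, had a summed member level of 25757 CPM and Actg2 at 15275 CPM, where the other 2 clusters had 8828 and 10697 CPM of members and 5276 and 4457 CPM of Actg2.

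Across members, the log2 difference between nuclei and cells was set against the length of the gene in the annotation. Pearson's r was 0.33 and Spearman's rho 0.32 over 80 members in the urothelial-like class, and 0.13 and 0.03 over 81 members in the fibroblast-like class. These points share their libraries and genes are not independent. The 20 shortest members had a median log2 difference of -2.97 and the 20 longest -2.25 in the urothelial-like class, against -2.0 and -1.72 in the fibroblast-like class.

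Complex II, citric acid cycle, glycolysis and further assembly factor genes had fewer calls in the fibroblast-like than in the urothelial-like class. The difference between the classes was not tested. Among subunits and carriers outside the name rule, the called genes were the same in both classes. These were Cox4i1 (log2 -3.04 in urothelial-like and -2.06 in fibroblast-like) and Cyc1 (-2.36 and -1.85). In the urothelial-like class, where 19.1% of all genes were lower, 4 of 4 complex II subunits, 8 of 16 citric acid cycle genes (1 higher), 7 of 15 glycolysis genes (1 higher) and 13 of 27 assembly factors outside the name rule were lower. In the fibroblast-like class, where 15.6% of all genes were lower, these counts were 2 of 4, 4 of 16 (1 higher), 5 of 15 and 7 of 27. None of the 9 regulators of mitochondrial genes was called in either direction in the urothelial-like class, and their median log2 difference was 0.35.

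In the sections, regions with muscle markers carried more respiratory chain RNA, as a share of counts, than regions with urothelial markers. The summed level was 37429, 31192, 34228 and 35794 CPM in muscle-marker regions of the first and second 22-month and first and second 14-month sections. Urothelial-marker regions were at 27930, 27523, 27068 and 28582 CPM. The 2 kinds of region did not overlap, and the ratio within a section was 1.34, 1.13, 1.26 and 1.25. Complex IV had ratios of 1.15 to 1.48 and complex III 1.06 to 1.15. A region with fibroblast markers was named in 1 section only, the second at 14 months, and was at 27279 CPM.

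A spot can hold several cells of different types, and muscle-marker regions held urothelial markers at 4630 to 8247 CPM (22133 to 23355 CPM in urothelial-marker regions) and fibroblast markers at 5673 to 10494 CPM (891 to 3490 CPM). Median counts per spot were 12255 to 15360 in muscle-marker and 30327 to 62121 in urothelial-marker regions. Ribosomal protein genes took 13% to 15.7% of the counts in muscle-marker and 18.8% to 24.8% in urothelial-marker regions. The part of mixed cell types, depth or ribosomal counts in the levels was not tested. Regions were set against spots nearest to another marker list, a rule chosen after the data had been seen because the planned one named a urothelial-marker region in 1 section only.

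With section as a block, 46 of 81 members were called higher and 9 lower in muscle-marker regions. Over all 14270 genes 71.6% were called, 35.9% were higher and 35.7% lower, and the median log2 difference was 0.31 over the members and -0.02 over all genes. Complex I had 25 of 36 members higher and 3 lower, with 6 of its 7 core subunits higher and none lower. Complex IV had 9 of 15 higher and 1 lower, the ATP synthase 7 of 14 and 1, complex III 3 of 8 and 2, and the assembly factors 2 of 7 and 1. At library size alone, 35 members were higher and 14 lower, and without the second 22-month section 46 were higher and 5 lower. The shares of all genes above are of the main fit and do not cover these alternatives.

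Ndufa11, an accessory subunit in the membrane arm of complex I, had the largest rise among members above 100 CPM. It was at 680, 694, 571 and 630 CPM in muscle-marker regions and at 242, 254, 243 and 243 CPM in urothelial-marker regions (log2 1.49 ± 0.11, adjusted p = 2.14e-06). The regions did not overlap. Ndufb7, another accessory subunit of complex I, was at 391, 392, 345 and 381 CPM against 140, 151, 170 and 165 CPM (log2 1.38 ± 0.11). Cox6c was at 2918, 1724, 2610 and 2335 CPM against 1232, 1001, 1109 and 1166 CPM (log2 1.17 ± 0.13, adjusted p = 4.54e-05). The second 22-month section was the lowest of the muscle-marker regions for Cox6c and still lay above every urothelial-marker region.

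**Figure D4:**
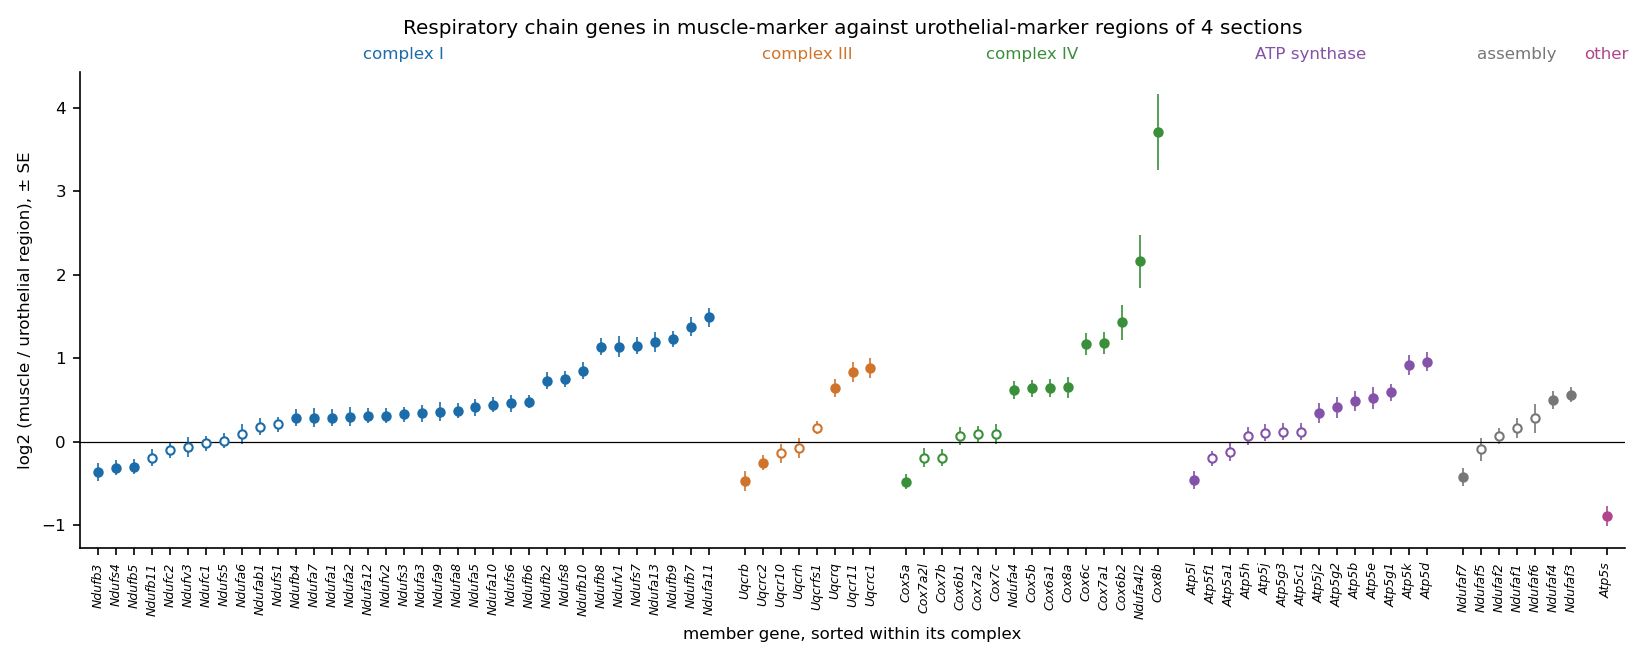
log2 ratio of muscle-marker to urothelial-marker regions (± SE, 4 sections) for the members shown, sorted within its complex along the horizontal axis; filled points passed the test at an adjusted p of 0.05 and open points did not. Cox8b, Ndufa4l2 and Ndufa11 lie at 3.71, 2.16 and 1.49, and the 9 members that were lower in muscle-marker regions include Cox5a, Uqcrb and Atp5l.

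Members of one complex did not move as one in the sections. Atp5l, the g subunit of the ATP synthase, was at 615, 510, 588 and 584 CPM in muscle-marker and 974, 874, 777 and 793 CPM in urothelial-marker regions (log2 -0.46 ± 0.11, adjusted p = 0.0049), while Atp5d, the delta subunit, was at 898, 945, 899 and 930 CPM against 438, 507, 559 and 534 CPM. Cox5a differed by -0.48 ± 0.09 and Uqcrb by -0.47 ± 0.12. Atp5s, one of the other Atp5 names, was at 11 to 13.3 CPM against 20.9 to 24.8 CPM (log2 -0.89 ± 0.12). The other lower calls were Ndufaf7, Ndufb3, Ndufb5, Ndufs4 and Uqcrc2.

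Cox7a1, Cox8b, Cox6b2 and Ndufa4l2 were each higher in muscle-marker regions. Cox7a1 was at 26.5, 25, 15 and 13.9 CPM against 12.7, 10.5, 8.53 and 6.11 CPM (log2 1.18 ± 0.13, adjusted p = 3.87e-05). Cox8b was at 3.12, 2.12, 4.57 and 4.42 CPM against 0, 0.381, 0.375 and 0.215 CPM, and Cox6b2 at 17.7, 22.6, 20.3 and 29.3 against 3.64, 9.81, 12.4 and 9.66 CPM (log2 1.43 ± 0.21). Ndufa4l2 was at 40, 50.7, 41.5 and 107 CPM against 4.68, 18.5, 18.3 and 12.8 CPM (log2 2.16 ± 0.32, adjusted p = 0.000355). In dissociated cells Cox6b2 and Cox8b were lower in smooth-muscle-like than in fibroblast-like cells, and fibroblast markers were higher in muscle-marker regions (values above); the part of these markers in the 2 genes was not tested. Skeletal muscle markers were at 489 to 609 CPM in muscle-marker and 51.1 to 103 CPM in urothelial-marker regions, and brown adipocyte markers at 2.54 to 5.74 and 0.215 to 0.843 CPM. Their part in the levels of Cox7a1 and Cox8b was not tested.

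Of the related lists, 11 of 13 mitochondrially encoded subunits were higher and none lower in muscle-marker regions (median log2 1.11), as were 12 of 15 glycolysis genes (1 lower) and 8 of 16 citric acid cycle genes (3 lower). Complex II was split, with Sdhb and Sdhc higher and Sdha and Sdhd lower. Ppargc1a was lower in muscle-marker regions (log2 -1.17 ± 0.29, adjusted p = 0.00528).

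Bulk RNA from dissociated bladder held less respiratory chain RNA, as a share of counts, than bulk RNA from intact bladder. The summed level was 7704, 7644 and 7882 CPM in intact replicates 1, 2 and 3 and 4959, 5158 and 5204 CPM in dissociated replicates. The groups did not overlap. Smooth muscle markers (10 genes) stood at 45148 ± 1019 CPM in intact and 3100 ± 613 CPM in dissociated bladder, while fibroblast markers (11 genes) stood at 14760 ± 1679 and 30311 ± 6104 CPM and urothelial markers (11 genes) at 6448 ± 479 and 4888 ± 970 CPM (SD, n = 3 each). Markers of other cell types differed between the groups as well. Skeletal muscle markers were at 144 ± 3.70 and 46.7 ± 3.01 CPM, adipocyte markers at 267 ± 19.2 and 41.9 ± 4.23 CPM, and brown adipocyte markers at 2.92 ± 0.230 and 0.703 ± 0.193 CPM. Erythroid markers were at 77.4 ± 5.11 and 327 ± 30.9 CPM. The part of these cell types in the members' levels was not tested. In bulk samples, fewer cells of a type and less RNA per cell cannot be told apart.

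Of 80 members tested, 65 were called lower and 3 higher in dissociated bladder, against 31.3% and 27.9% of all 16534 genes. The median log2 difference was -0.49 over the members and -0.03 over all genes. Complex I had 32 of 36 lower, complex III 7 of 8, complex IV 10 of 14 (2 higher), the ATP synthase 11 of 14 (1 higher) and the assembly factors 4 of 7. With a log2 change of at least 1 also required, 4 of the 80 members were lower and 1 higher. Of all 16534 genes, 22% were called at that threshold, and 54.7% of these calls were higher. Among related lists, 4 of 4 complex II subunits, 13 of 16 citric acid cycle genes (1 higher) and 11 of 15 glycolysis genes (2 higher) were lower. Of the 13 mitochondrially encoded subunits 2 were called lower. Their summed level was 26235, 27443 and 25736 CPM in intact and 21768, 22348 and 19565 CPM in dissociated bladder, with no overlap.

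Cox6c fell furthest. It was at 301, 338 and 346 CPM in intact and 92.1, 92.7 and 92.4 CPM in dissociated bladder (log2 -1.72 ± 0.08, adjusted p = 3.99e-06). Ndufa11 was at 60.7, 54.8 and 61.7 against 26.1, 24.4 and 26.8 CPM (log2 -1.08 ± 0.09), and Ndufa4, the complex IV subunit first assigned to complex I, at 167, 173 and 180 against 72.4, 83.2 and 78.4 CPM (log2 -1.04 ± 0.08). Intact and dissociated values of these 3 genes did not overlap. Atp5b, at 913, 907 and 915 against 541, 572 and 613 CPM, and Cox8a, at 154, 156 and 165 against 103, 101 and 115 CPM, fell less. Cox4i1, outside the name rule, fell by 0.27 ± 0.08 on the log2 scale.

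**Figure D5:**
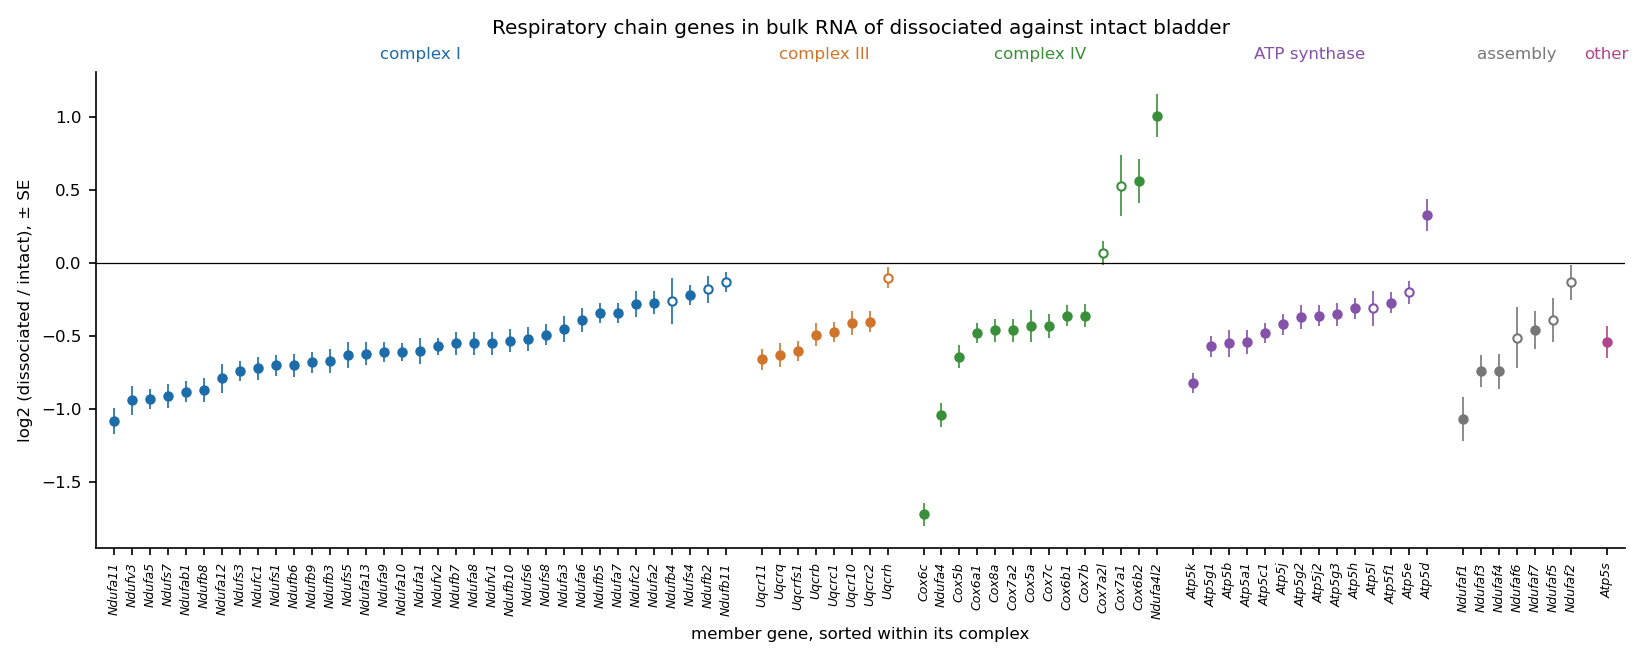
log2 ratio of dissociated to intact bulk bladder (± SE, 3 against 3 libraries) for the members shown, sorted within its complex along the horizontal axis; filled points passed the test at an adjusted p of 0.05 and open points did not. Cox6c lies lowest at -1.72, and Ndufa4l2, Cox6b2 and Atp5d are the 3 filled points above 0.

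The 3 members that rose were Ndufa4l2, Cox6b2 and Atp5d. Ndufa4l2 was at 8.97, 7.72 and 6.77 CPM in intact and 16.8, 13.8 and 13.0 CPM in dissociated bladder (log2 1.01 ± 0.15, adjusted p = 0.000963). Cox6b2 was at 6.98, 7.46 and 8.27 against 11.7, 10.7 and 8.56 CPM (log2 0.56 ± 0.15, adjusted p = 0.0125). The groups of both genes did not overlap, though the third dissociated replicate came close for Cox6b2, whose call was lost without the first intact replicate (adjusted p = 0.0515). Cox6b2 fell outside the rule for named genes and was taken up after its values had been seen, as 1 of the 3 rises. Atp5d was at 108, 101 and 108 against 111, 117 and 140 CPM (log2 0.33 ± 0.11, adjusted p = 0.0288), and its call was lost at library size alone and without each intact replicate (without the first, 1 member was called higher). Ppargc1a, a regulator outside the name rule, was at 7.5, 12.2 and 10.0 against 18.3, 26.3 and 41.4 CPM (log2 1.63 ± 0.31, adjusted p = 0.00293).

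Cox7a1 was low in bulk, at 1.78, 1.95 and 1.62 CPM in intact and 2.70, 2.37 and 2.11 CPM in dissociated bladder, and was not called (log2 0.53 ± 0.21, adjusted p = 0.0555). Cox8b, at 0.074 to 0.231 CPM over the 6 libraries, was not tested. Members without a call also included Atp5e, Atp5l, Cox7a2l, Ndufaf2, Ndufaf5, Ndufaf6, Ndufb11, Ndufb2, Ndufb4 and Uqcrh.

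No member passed the test between ages. edgeR called 0 of 81 members in whole sections of 22 against 14 months (2 against 2), and 0 of all 14974 genes (0%). At an unadjusted p under 0.05 there were 4 members and 2481 genes, and DESeq2 called 0 members and 420 genes. In urothelial-like cells of the 22-month and 24-month against the 3-month and 12-month libraries, with sex of the pool as a term, 0 of 80 members and 0 genes (0%) were called, 0 members and 338 genes had an unadjusted p under 0.05, and DESeq2 called 0 members and 1 gene. In fibroblast-like cells 0 of 81 members were called, against 2 of 11705 genes (0.0171%), 1 member and 333 genes had an unadjusted p under 0.05, and DESeq2 called 0 members and 8 genes. Without the 24-month library, the older group was 1 pool, the males at 22 months. With sex of the pool as a term, the age difference then rests on that pool against the males at 3 months. Calls of that fit in fibroblast-like cells are therefore not read. The median log2 difference over the members was 0.11 in urothelial-like and 0.13 in fibroblast-like cells, against 0.00 and -0.01 over all genes, and an effect within the spread between these few pools was not detectable.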

How the data were processed

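Gene counts were measured in 8 droplet libraries (unique molecular identifiers per cell or nucleus), 4 sections (per spot) and 6 bulk libraries (reads). The counts were deposited by the authors without normalization, and the submitters' processing notes name mm10, bcl2fastq, Cell Ranger, Space Ranger, Subread and featureCounts. No column of another series was in the tables.

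Cells, nuclei and spots with at least 500 counts were kept, and cells with at most 20% mitochondrial counts. The last limit could remove no cell from the 2 libraries of males, which held no mitochondrial counts. The barcodes with the highest scrublet scores were removed as doublets, 0.8% for each 1000 barcodes of a droplet library. Each library was clustered (scanpy 1.11.5, 30 components of 2000 variable genes, 15 neighbours, Leiden resolution 1) without member or mitochondrially encoded genes. Clusters of droplet libraries were named from fixed markers. At least 3 markers of a class had to be detected in 10% of the cluster's cells. The same markers had to reach 2 times their pooled level in clusters nearest to other classes. A cluster stayed unnamed if its mean marker score was under 0.25 or its leading genes held more markers of another class. Low depth with no marker among the leading genes also left it unnamed.

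Counts summed per library and class were tested with edgeR 4.0.16 (quasi-likelihood, TMM, filterByExpr, robust, two-sided, Benjamini-Hochberg adjustment over all genes, threshold 0.05) in R 4.3.3, on gene names common to the tables compared. A call is an adjusted p under this threshold. DESeq2 1.42.0 and other scalings, filters, class settings and left-out libraries were alternatives. The code was tested on simulated data. Poisson intervals of 95% and floors of 3 counts cover counting error only.

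Named members were the complex IV and ATP synthase isoforms and, per comparison, up to 8 called rises and 8 called falls whose mean reached 10 CPM and whose groups lay apart; pathway lists gave up to 4 genes. Members and lists were chosen with earlier results of these data known. Atp5o-1 was dropped from the bulk table, 1 of 5 names there that repeat the counts of another. Counts over members cover all of them, but 1 member is not reported singly here.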

Additional observations from a re-analysis of the deposited data

Results flagged for a closer look

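In 20 sets of values with 4 or 5 libraries or sections, 3 held a value whose gap to its nearest neighbour was large for the set's whole range. Chance alone gives such a gap in about 1 of 20 sets. The summed member level of urothelial-like cells was 33950 CPM in the 22-month library, with the other 4 whole-bladder libraries at 28124 to 29059 CPM. The complex III level of urothelial-like cells was 5266 CPM in the same library. The complex IV level of urothelial-like cells was 5825 CPM in the 3-month library, below the other 4. Both are the libraries of males, in which Atp5l, Atp5g2, Cox7c and Ndufs5 were at or near 0. Ribosomal protein genes took 6.42% to 7.42% of the counts there. Without ribosomal protein genes and Malat1 in the denominator, the summed level was 39745 CPM at 22 months and 31382 CPM at 3 months. The libraries of mixed sex were then at 43319 to 44467 CPM, above both. The complex III and complex IV levels were not recomputed in this way, and the part of the low members was not tested.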

How the results depend on the processing

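Counts of members called (higher and lower) and mean summed levels were recomputed in 228 cases. Of these, 205 stayed within 1.5 times the count or within 1 SD of the level. These quantities have no direction, so none could reverse, and the 205 include counts of 0 that stayed at 0. With a log2 change of at least 1, bulk gave 1 higher and 4 lower, where 22% of all genes were called. At library size alone, fibroblast-like against urothelial-like cells gave 5 higher, nuclei against cells 1 higher in the urothelial-like and 14 lower in the fibroblast-like class, and muscle-marker against urothelial-marker regions 14 lower. Smooth-muscle-like against fibroblast-like cells gave 0 higher and 0 lower at resolution 2, 8 higher and 1 lower with doublets kept, and 28 higher from the 2 detrusor libraries only (chosen after seeing the data). A denominator without ribosomal protein genes and Malat1 gave summed levels of 40590 CPM in urothelial-like and 23530 CPM in fibroblast-like cells. Leaving out each library in turn gave 1 to 3 higher and 60 to 66 lower in bulk (1 higher without the first intact library). Of all genes, 48.1% to 58% were called in these bulk fits. For smooth-muscle-like cells, this step gave 15 to 29 higher and 1 to 2 lower, with 15.5% to 25% of all genes called. The counts were 15 and 1 without detrusor enriched, 29 and 1 without detrusor only, and 27 higher without the 24-month library. For fibroblast-like nuclei, 39 to 61 were lower (39 without the first 12-month library), and in the regions 5 to 9 (5 without the second 22-month section). The fit of older fibroblast-like cells without the 24-month library leaves 1 older pool and is not read. The cause of these shifts was not tested, except that resolution 2 and kept doublets changed which cells formed the class. Cluster borders in the detrusor-enriched and 3-month libraries also moved with the numerical precision of the clustering; double precision was used. Leaving out the only nuclei library could not be fitted, nor could the planned rule for section regions. In bulk, the replicate block gave 3 higher and 66 lower, with 59.7% of all genes called. Same-numbered samples correlated at 0.203, 0.344 and -0.0702, and differently numbered ones at -0.437 to 0.277. These few correlations cannot decide whether the numbers pair the samples. Without the library block, fibroblast-like against urothelial-like cells had 55 lower, with 52.5% of all genes called. Without the section block the regions had 46 higher and 9 lower. Where no share of all genes is given for a fit, its counts are not read as a result about the members. Among 3534 further values (single named genes and summed levels in single libraries), 3274 stayed the same, 220 lost and 22 gained a call, 18 summed levels moved, and none reversed. A count of 0 in the 20 smooth-muscle-like cells of the 24-month library allows up to 26.1 CPM, which limits what can be seen of low isoforms there.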

Other observations

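The summed respiratory chain level of blood-endothelial-like cells lay below that of fibroblast-like cells in 2 of 4 whole-bladder libraries and above it in the other 2. These cells were at 20900 ± 3102 CPM (SD, n = 4 whole-bladder libraries, 16781 to 24022 CPM), and mesothelial-like cells at 23626 ± 3079 CPM (n = 3, 20177 to 26097 CPM). The mesothelial-like cells numbered 67, 28 and 29 in the 22-month, 3-month and 24-month libraries, with fibroblast markers at 39839, 55001 and 28600 CPM. Fibroblast-like cells of these libraries had these markers at 63255, 46083 and 30879 CPM. Macrophage-like or monocyte-like cells spread widest, from 11146 CPM in the 3-month library to 22849 CPM in the first 12-month library. In the detrusor-only library, Schwann-like cells were at 17274 CPM, mesothelial-like cells at 18649 CPM and pericyte-like cells at 17912 CPM, each above the 14346 CPM of its fibroblast-like cells.

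Cox6a2, the heart and skeletal muscle isoform of subunit 6a, was at 8.44 CPM in macrophage-like or monocyte-like cells of the detrusor-only library (23 counts, 95% Poisson interval 5.35 to 12.7), and all 23 counts of that library's kept cells stood in this class. In the detrusor-enriched library 8 of 8 counts did so as well (3.28 CPM). Of 29 counts in the 22-month whole-bladder library 22 stood in dendritic-like, 5 in macrophage-like or monocyte-like (4.15 CPM) and 2 in fibroblast-like cells. Of 19 counts in the first 12-month library 10 stood in B-like and 5 in dendritic-like cells, and all 12 counts of the second stood in unnamed clusters. Cox6a2 was singled out after its values had been seen, and no test was made.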
